A study of Homo sapiens with 6 samples.

Results

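The RAB small GTPases were taken as every gene symbol of the count table that consists of RAB, a number and at most 1 end letter. The rule found 62 genes among 27980 symbols, and 56 of them had enough reads to be tested among 15473 genes tested in all. RNA came from RKO cells, an established line from a poorly differentiated colon carcinoma, in 6 libraries. In 3 libraries (shTRIP6, genotype labelled as TRIP6 knockdown) the cells stably carried a lentiviral hairpin against TRIP6, and in 3 (shControl, genotype labelled as WT) a scrambled hairpin delivered in the same way. All of these cells were kept in puromycin at 5 µg/ml, beginning 36 h after infection and lasting 2 to 3 weeks, so the controls also carry a vector and went through selection. Both groups derive from a single cancer line, and the labels do not say how many hairpins, infections or clones stand behind each. The replicates are called biological, but nothing says that they were separate cultures, so the p-values measure the spread between these libraries, which may be technical.

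RAB proteins are molecular switches that mark membranes. In the GTP-bound state they sit on a vesicle or organelle through prenyl groups at their C-terminus and recruit effectors such as motors, tethers and docking factors. Exchange factors load them with GTP, GTPase-activating proteins switch them off, and GDI proteins return them to the cytosol for another round. In epithelial cells different RABs route cargo out of the endoplasmic reticulum and Golgi, to the cell surface, and back through early, recycling and late endosomes.

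The libraries held 29605764 to 32089298 counts, and 1 count was worth 0.0314 to 0.0336 CPM (counts scaled to a common library size, with TMM factors). TRIP6, an adaptor protein of focal adhesions and the nucleus, stood at 19.8, 19.4 and 19.5 CPM in the shTRIP6 libraries and at 73.9, 86.4 and 80.5 CPM in the shControl libraries (log2 fold change -2.04 ± 0.07). Of 10 fixed markers of colonic epithelium, the keratins KRT8 and KRT18 stood at 1719 and 885 CPM in shTRIP6, KRT19 at 50.7 CPM against 13.8 CPM in shControl, while EPCAM, KRT20, CDX1 and VIL1 had no count in any library and CDH1 had at most 9. The summed level of 8 neuroendocrine markers was 5.62 to 6.85 CPM in shTRIP6 and 6.15 to 6.40 CPM in shControl, with CHGA at 2 counts or fewer in each library and INSM1 at 0. Fibroblast markers (10 genes) summed to 160 to 180 CPM in shTRIP6 against 116 to 129 CPM in shControl, most of it THY1, but 5 of the 9 tested fell (among them FAP by 5.49, COL3A1 by 3.07 and COL1A1 by 1.12 on the log2 scale) and 2 rose, with a median log2 fold change of -1.12. The summed level of 8 leukocyte markers was 240 to 249 against 194 to 244 CPM, most of it CD68. The 6 endothelial markers summed to 0.345 to 0.450 against 2.28 to 2.57 CPM. Of these markers DCN, POSTN, PTPRC and PECAM1 had no count in shTRIP6, and the part of other cell types in the results below was not tested. In RNA of whole cultures, fewer cells of a type and less RNA per cell cannot be told apart.

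Across the family the summed level hardly moved while single members changed several-fold. The 62 genes together took 3811, 3837 and 3792 CPM in the shTRIP6 libraries and 3893, 3763 and 3873 CPM in the shControl libraries, and these ranges overlapped. RAB3B, a GTPase of regulated exocytosis, and RAB15, of the recycling endosome, showed the largest rises among members at 10 CPM or more. RAB27B, which acts in exocytosis and exosome release, RAB31, of endosomes and the trans-Golgi, and RAB30, of the Golgi, showed the largest falls. With p-values of edgeR's quasi-likelihood test adjusted by Benjamini-Hochberg over all genes tested (called below 0.05), 14 of the 56 tested members rose in shTRIP6, 18 fell and 24 did not pass. With upper-quartile scaling of the libraries the split was 19 rises and 16 falls. Over all genes, too, rises outnumbered falls with that scaling, which shifted the log2 fold change by a median of 0.048. The shares of all genes that follow were obtained with TMM factors. Of all genes tested, 60.1% were called, 29.0% as higher and 31.2% as lower, against 57.1% of the tested members, so the share of RAB genes called lay near that of the transcriptome. In 34 of the 56 the libraries of the groups did not overlap, which is 60.7% against 65.3% of all genes tested. Calls of at least 2-fold numbered 9 of 56 (16.1%, against 14.9% of all genes), 4 of them rises (4.38% of all genes) and 5 falls (10.5% of all genes). Among genes at a mean of 10 CPM or more such calls numbered 5 of 40 members (12.5%), against 6.44% of all genes. That difference was not tested. The median log2 fold change was 0.06 over the tested members and 0.00 over all genes.

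**Figure D1:**
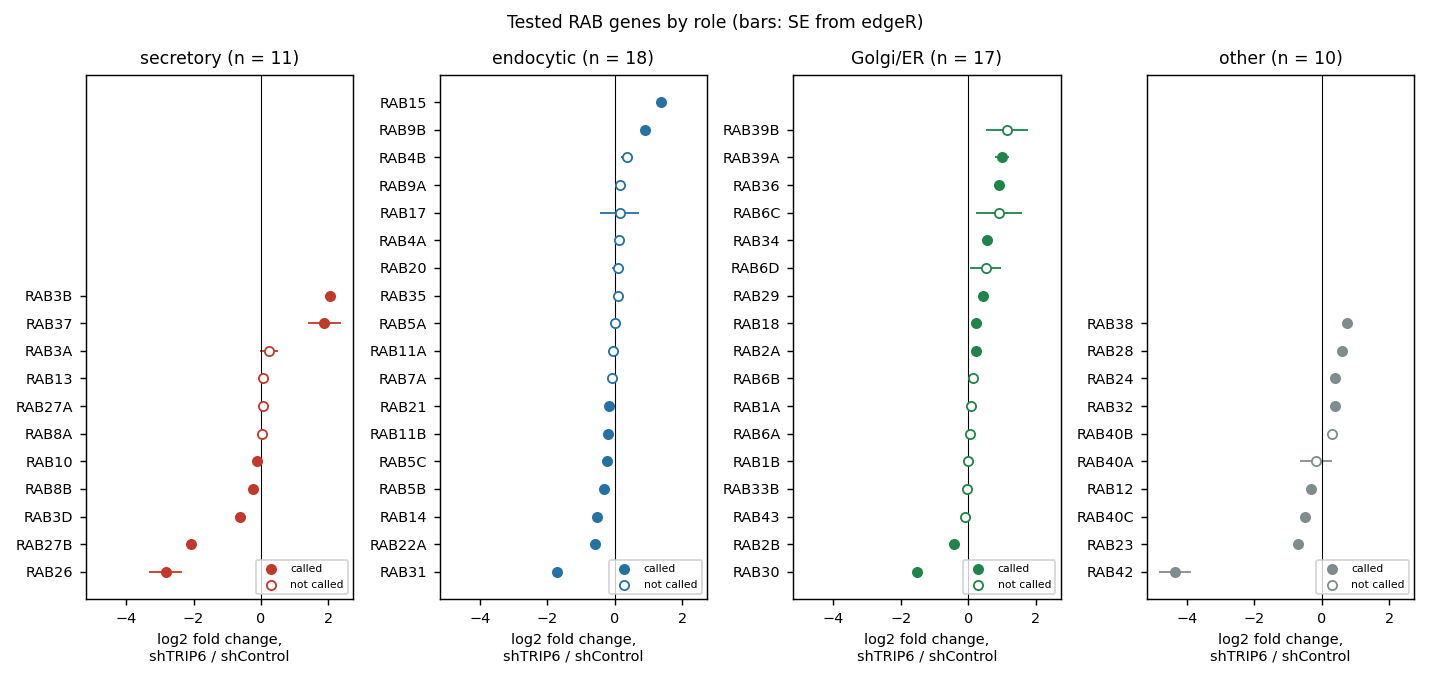
Log2 fold change of shTRIP6 over shControl (x axis) of the 56 tested RAB genes, one panel per role, with SE bars from edgeR; filled points passed an adjusted p of 0.05 and open points did not. Most genes sit close to 0, and RAB3B (2.03), RAB27B (-2.09), RAB31 (-1.72) and RAB42 (-4.36) stand far from it.

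Members were sorted by textbook role into secretory (12 genes), endocytic (19 genes), Golgi and endoplasmic reticulum (20 genes) and other (11 genes). The sorting is coarse. RAB12, of recycling endosomes and lysosomes, was counted as other, and RAB39A, of phagosomes and autophagy, with the Golgi and endoplasmic reticulum. Of the tested secretory RABs 2 of 11 rose and 5 fell, with a median log2 fold change of 0.03. Of the endocytic RABs 2 of 18 rose and 7 fell, with a median of -0.02. With limma-voom 4 endocytic RABs rose, and with upper-quartile scaling, under which more of all genes rose as well, 5 rose. Of the Golgi and endoplasmic reticulum RABs 6 of 17 rose and 2 fell, with a median of 0.23. This median was 0.11 when genes had to reach 1 CPM in 3 libraries. Among the other members 4 of 10 rose and 4 fell. The difference between the classes was not tested, and each count is to be read beside the 29.0% and 31.2% of all genes called higher and lower. The members of a class are different genes measured in the same 6 libraries, not replicates.

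Summed per kb of exon, so that long genes do not weigh more, the endocytic RABs made up 40.6, 40.3 and 40.9% of the RAB level in the shTRIP6 libraries and 45.6, 44.2 and 45.2% in the shControl libraries. Golgi and endoplasmic reticulum RABs made up 37.5, 37.9 and 37.1% in shTRIP6 and 33.6, 34.4 and 33.8% in shControl. The groups did not overlap in either share. Differences (shTRIP6 minus shControl) were -4.40 points for endocytic RABs and 3.57 points for Golgi and endoplasmic reticulum RABs. Nor did they overlap in the secretory share or in that of the other members (9.08% in shTRIP6, 7.87% in shControl). Single genes weigh heavily: RAB34 stood at 71.5 CPM per kb in shTRIP6 and 49.2 in shControl. The summed level of its class, Golgi and endoplasmic reticulum, was 416 and 377 CPM per kb. The secretory share was 12.8% ± 0.180 in shTRIP6 and 13.2% ± 0.168 in shControl (SD, n = 3), and its direction turned when the CPM were not divided by length (17.5% against 16.4%). These shares were described and not tested.

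RAB7A, the GTPase of late endosomes and lysosomes, was the most abundant member per kb of exon, at 188 ± 13.0 CPM per kb in shControl and 177 ± 2.38 in shTRIP6. RAB1B, which acts between endoplasmic reticulum and Golgi, followed at 154 ± 5.39 and 152 ± 5.49 CPM per kb. The early endosome GTPase RAB5C stood next at 109 ± 7.07 and 93.0 ± 3.13 CPM per kb. These 3 held the first 3 places in the order of both groups, each separated from the next by more than the SDs of the libraries. Lower in the order of shControl, RAB11B, RAB6A, RAB13 and RAB2A stood between 27.3 and 25.7 CPM per kb, a spread no wider than the SD of 2.82 for RAB6A. RAB3B moved from place 37 to place 23, RAB15 from 39 to 30, RAB31 from 19 to 33 and RAB27B from 27 to 42. Lengths were those of all annotated exons of a gene joined, 12844 bases for RAB3B and 16036 for RAB21, which lowers the level per kb of genes with long or rarely used exons.

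**Figure D2:**
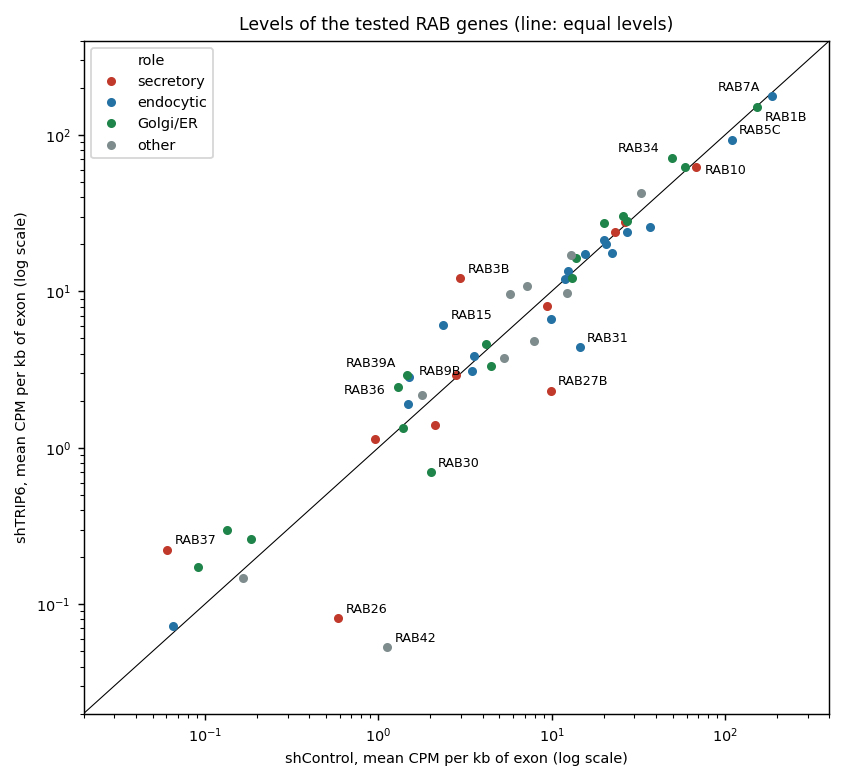
Mean CPM per kb of exon in shControl (x axis) and in shTRIP6 (y axis), both on log scales, for the 56 tested RAB genes coloured by role; the line marks equal levels. The abundant genes RAB7A, RAB1B and RAB5C lie near the line, while RAB3B and RAB15 lie above it and RAB27B, RAB31, RAB30, RAB26 and RAB42 below it.

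Among the secretory RABs, RAB3B and RAB27B moved in opposite directions by about the same size. RAB3 proteins sit on secretory granules and synaptic-like vesicles and bind RIM and rabphilin effectors. RAB3B (chromosome 1, 51907956 to 51990764, minus strand) stood at 149, 153 and 164 CPM in the shTRIP6 libraries and at 37.4, 38.4 and 38.4 CPM in the shControl libraries. Every shTRIP6 library lay far above every shControl library, a log2 fold change of 2.03 ± 0.06 (edgeR adjusted p = 3.50e-16). Its paralog RAB3D, of exocrine-type granules, fell, with 6.46, 6.62 and 5.53 CPM in shTRIP6 against 8.16, 11.5 and 8.73 CPM in shControl (log2 fold change -0.61 ± 0.15, edgeR adjusted p = 0.00206). RAB3A, the main neuronal paralog, stood at 1.79, 2.24 and 2.19 against 2.18, 1.41 and 1.65 CPM, with overlapping groups and no call. RAB3C had no count in any library, which allows up to 0.0941 to 0.101 CPM (3 counts) in each. Per kb of exon RAB3B made up 82.6% ± 1.25 of the RAB3 subfamily in shTRIP6 and 48.9% ± 1.93 in shControl (SD, n = 3), and RAB3D 9.62% ± 1.22 and 35.1% ± 5.05. By CPM without division by length the RAB3B share was 94.9% ± 0.511 and 77.3% ± 2.09, a difference of 17.6 points against 33.7 per kb. Summed per kb, the subfamily stood at 14.6 ± 0.596 CPM in shTRIP6 and 6.07 ± 0.262 CPM in shControl. Exons of RAB3D overlap those of CCDC159 and TMEM205 and exons of RAB3A those of MPV17L2, so without a stated strand setting their counts may include reads of these neighbours.

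RAB27B (chromosome 18, 54717860 to 54895516, plus strand) stood at 15.6, 16.1 and 20.02 CPM in shTRIP6 and at 74.8, 68.4 and 76.7 CPM in shControl. All shTRIP6 libraries lay far below all shControl libraries, at 23.6% of the control mean (log2 fold change -2.09 ± 0.09, edgeR adjusted p = 1.67e-13). RAB27A, the paralog that acts in melanosome and lytic granule release, stood at 17.1, 15.98 and 16.01 against 16.6, 14.3 and 16.4 CPM, with overlapping groups (log2 fold change 0.05 ± 0.10, edgeR adjusted p = 0.675). Per kb of exon RAB27B made up 77.2, 78.3 and 77.9% of the pair in shControl and 40.8, 43.2 and 48.5% in shTRIP6. By CPM without division by length the RAB27B share was 81.8, 82.7 and 82.4% in shControl and 47.8, 50.2 and 55.6% in shTRIP6. On both scales RAB27B held the larger part in each shControl library, and in shTRIP6 which paralog held it depended on the scale and library. Exons of RAB27A overlap those of PIGB and PIGBOS1.

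**Figure D3:**
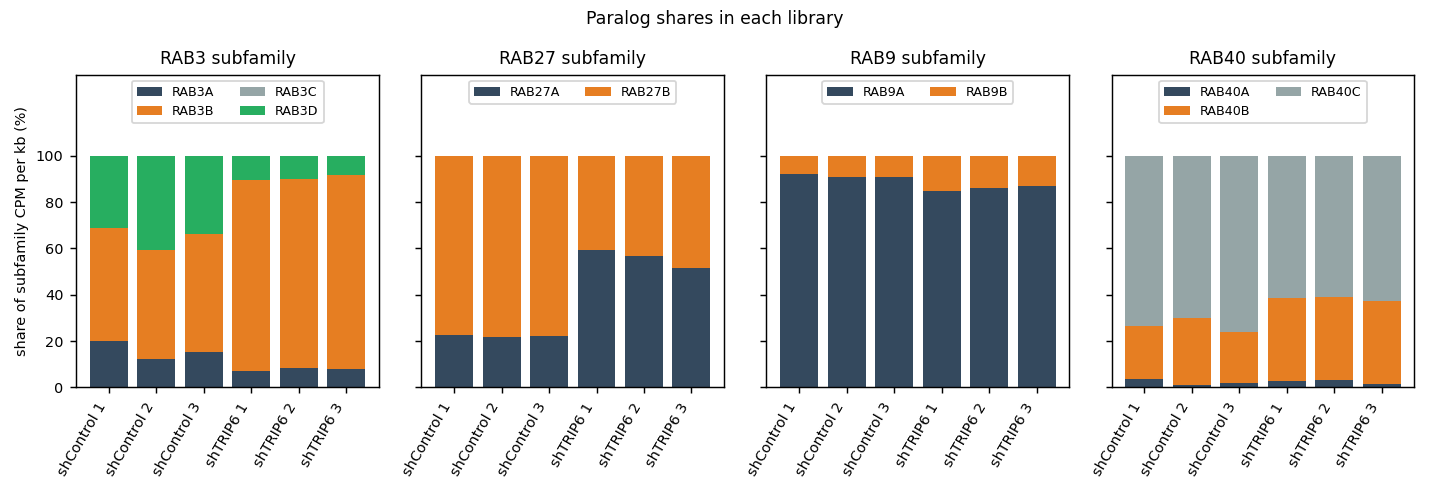
Share of each paralog in the CPM per kb of its subfamily (y axis, %) in each of the 6 libraries (x axis), for RAB3, RAB27, RAB9 and RAB40. RAB3B fills 81.4 to 83.9% of its bar in shTRIP6 against 47.0 to 50.9% in shControl, and RAB27B goes from 77.2 to 78.3% in shControl to 40.8 to 48.5% in shTRIP6.

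The DNA before the starts of RAB3B and RAB27B is shown because, of the secretory genes at 1 CPM or more, these had the largest changes, in opposite directions. Each run holds the 250 bases before a RefSeq start (GRCh38.p14), 5′ to 3′ on the gene's strand, with 1 start for RAB3B (chr1:51990701-51990950, minus strand) and 2 for RAB27B (chr18:54717607-54717856 and chr18:54828227-54828476, plus strand). Capitals mark matches, on either strand, to the AP-1 motif TGANTCA, the TEAD motif GGAATG or the GC box GGGCGG, and no matches overlapped. TRIP6 has been described as a partner of AP-1 factors in the nucleus and of the Hippo pathway, which acts through TEAD factors.
RAB3B: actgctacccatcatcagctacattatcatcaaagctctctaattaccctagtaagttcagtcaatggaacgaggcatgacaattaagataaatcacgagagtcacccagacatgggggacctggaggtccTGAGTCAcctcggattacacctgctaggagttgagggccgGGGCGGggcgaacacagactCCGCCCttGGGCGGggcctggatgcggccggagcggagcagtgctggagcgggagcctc
RAB27B, first start: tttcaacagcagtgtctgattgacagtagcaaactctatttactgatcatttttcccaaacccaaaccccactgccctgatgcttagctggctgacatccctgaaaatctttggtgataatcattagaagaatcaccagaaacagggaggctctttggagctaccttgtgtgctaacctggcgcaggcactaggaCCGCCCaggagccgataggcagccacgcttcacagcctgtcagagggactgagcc
RAB27B, second start: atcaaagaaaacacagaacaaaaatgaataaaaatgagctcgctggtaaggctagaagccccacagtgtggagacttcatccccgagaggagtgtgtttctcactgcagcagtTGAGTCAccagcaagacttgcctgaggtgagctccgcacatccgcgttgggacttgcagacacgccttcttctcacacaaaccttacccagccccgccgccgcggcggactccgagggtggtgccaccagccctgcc
The AP-1 motif occurred once before RAB3B, beginning 119 bases before the start, and once before the second start of RAB27B, beginning 137 bases before it. Both matches read TGAGTCA. RAB3B had 3 GC boxes and 12 CpG dinucleotides, the first start of RAB27B 1 GC box and 4 CpG dinucleotides, and the second no GC box and 12 CpG dinucleotides. No TEAD motif lay in these 3 windows. Counted in the same 250 bases before the start, for all 35116 starts in the table, 6.57% held the AP-1 motif, 11.9% the TEAD motif and 42.6% the GC box. For the 16277 starts of tested genes the shares were 4.77%, 10.1% and 61.3%. The table held 69 such stretches for 49 of the 62 RAB genes. Of these stretches 6 had the AP-1 motif (8.70%), 5 the TEAD motif (7.25%) and 51 the GC box (73.9%). A match is a description of the sequence and not a bound site. By the gene bounds given above, the RAB3B window runs into the gene, which ends at 51990764 on the minus strand. The window of the second RAB27B start lies inside the bounds of that gene.

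The remaining secretory members differed little between groups or were scarce. RAB10, which drives delivery to the basolateral surface and of glucose transporters, was the most abundant of the class, at 226, 224 and 229 CPM in shTRIP6 and 241, 246 and 252 CPM in shControl. Its groups did not overlap, but the fall was small (log2 fold change -0.12 ± 0.04, edgeR adjusted p = 0.0187). The call was lost with upper-quartile scaling (adjusted p = 0.133) and without shTRIP6 replicate 1 (0.0869), shTRIP6 replicate 2 (0.0957) or shControl replicate 3 (0.0614), and its alternatives spanned 0.00272 to 0.133. RAB8B, of membrane delivery to the cell surface, fell by 0.24 on the log2 scale, while RAB8A (0.03) and the junctional RAB13 (0.06) were not called. RAB26 and RAB37, GTPases of granule secretion, had means below 1 CPM and are given after their values were seen. RAB26 stood at 0.126, 0.160 and 0.321 CPM in shTRIP6 against 1.81, 0.834 and 1.75 CPM in shControl (log2 fold change -2.83 ± 0.50, edgeR adjusted p = 7.38e-05). RAB37 stood at 1.19, 0.991 and 1.22 against 0.605, 0.193 and 0.129 CPM (log2 fold change 1.88 ± 0.50, edgeR adjusted p = 0.00321). At counts this low a single library moves the size: the log2 fold change of RAB37 was 2.79 without shControl replicate 1.

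**Figure D4:**
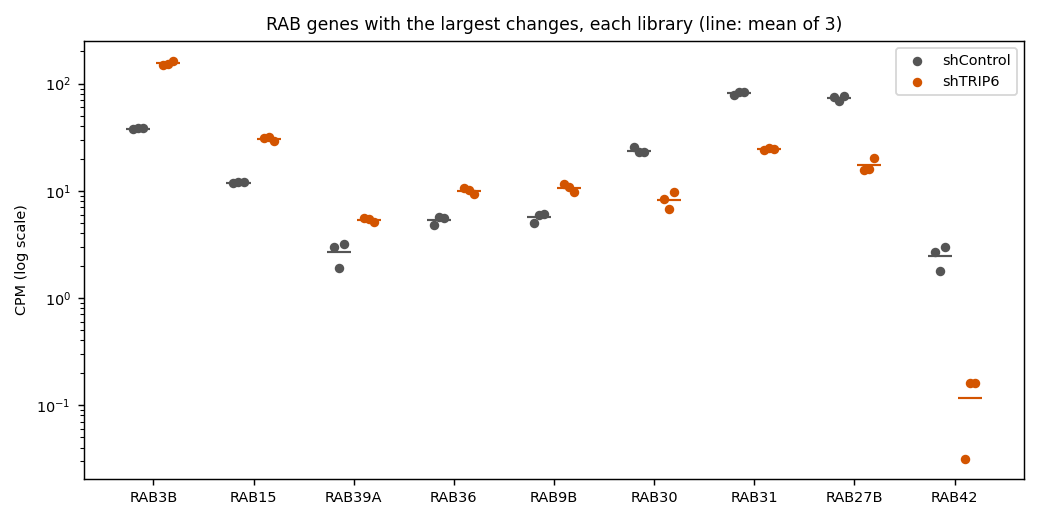
CPM (y axis, log scale) of the 9 RAB genes at a mean of 1 CPM or more with a called log2 fold change of at least 0.8 in size, with a point per library and a line at the mean of 3. In each gene the shTRIP6 points lie wholly to a side of the shControl points, above them for RAB3B, RAB15, RAB39A, RAB36 and RAB9B and below them for RAB30, RAB31, RAB27B and RAB42.

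Among the endocytic RABs the falls outnumbered the rises, but the 2 rises were of recycling and late endosome genes. RAB15 (chromosome 14, 64945814 to 64973226, minus strand), which slows traffic from early to recycling endosomes, stood at 31.2, 32.0 and 28.9 CPM in shTRIP6 and at 11.8, 12 and 11.96 CPM in shControl. The shTRIP6 values lay at more than 2 times the shControl values in every library (log2 fold change 1.36 ± 0.09, edgeR adjusted p = 1.05e-10). RAB9B (chromosome X, 103822322 to 103832228, minus strand), a late endosome paralog, stood at 11.4, 10.8 and 9.68 CPM in shTRIP6 against 4.97, 5.97 and 6.05 CPM in shControl (log2 fold change 0.91 ± 0.14, edgeR adjusted p = 1.47e-05). RAB9A, which returns mannose 6-phosphate receptors to the Golgi, stood at 36.6, 37.5 and 36.8 against 32.8, 32.5 and 34.0 CPM and was not called, although its groups did not overlap (edgeR adjusted p = 0.0533). It passed with limma-voom and with upper-quartile scaling, and its alternatives spanned 0.0137 to 0.126. RAB9B supplied 14.0% ± 1.05 of the pair per kb of exon in shTRIP6 and 8.80% ± 0.809 in shControl.

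RAB31 (chromosome 18, 9708165 to 9862551, plus strand), a relative of RAB5 that carries cargo between the trans-Golgi and endosomes, fell from 78.6, 82.8 and 82.7 CPM in shControl to 23.9, 25.2 and 24.8 CPM in shTRIP6. The libraries were tight in both groups, and shTRIP6 kept 30.3% of the control mean (log2 fold change -1.72 ± 0.06, edgeR adjusted p = 2.29e-14). RAB22A, its close relative in early endosomes, fell by 0.57 on the log2 scale, from 96.5, 95.04 and 84.2 to 61.4, 59.4 and 65.1 CPM. RAB14, of the Golgi to endosome route, fell from 151, 160 and 166 to 110, 112 and 111 CPM (log2 fold change -0.52 ± 0.05). Of the RAB5 trio, which governs fusion of early endosomes, RAB5B and RAB5C fell by 0.33 and 0.23 on the log2 scale, and RAB5A was at 0.01 with no call. Among the recycling RABs, RAB11B fell by 0.19, and RAB11A (-0.05), RAB4A (0.12), RAB4B (0.36) and RAB35 (0.10) were not called. Both RAB4B and RAB35 passed with upper-quartile scaling, RAB4B also with limma-voom and without shControl replicate 3, and RAB35 without shTRIP6 replicate 3 (alternatives from 0.0109 to 0.177 and from 0.0267 to 0.343). RAB21, an integrin-binding endosomal GTPase, fell by 0.17 on the log2 scale (edgeR adjusted p = 0.0277). That call was lost with upper-quartile scaling and without any of shTRIP6 replicates 1 and 2 and shControl replicates 2 and 3 (alternatives from 0.00568 to 0.157). RAB7A was at 482, 475 and 488 CPM in shTRIP6 and 541, 471 and 517 CPM in shControl, with overlapping groups and no call, except without shControl replicate 2 (edgeR adjusted p = 0.0183, with alternatives up to 0.564). The RABs known as epithelial, RAB17 and RAB25, were scarce: RAB17 had 5 to 16 counts in a library and RAB25 at most 2.

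The 250 bases before the RefSeq start of RAB31 (GRCh38.p14, chr18:9708051-9708300, plus strand) are shown, since it is the endocytic gene with the largest change and its window differs in base content from those of the secretory genes above. Capitals mark the same motifs. The gene bounds given above begin at 9708165, so the window from there on lies inside the annotated gene.
RAB31: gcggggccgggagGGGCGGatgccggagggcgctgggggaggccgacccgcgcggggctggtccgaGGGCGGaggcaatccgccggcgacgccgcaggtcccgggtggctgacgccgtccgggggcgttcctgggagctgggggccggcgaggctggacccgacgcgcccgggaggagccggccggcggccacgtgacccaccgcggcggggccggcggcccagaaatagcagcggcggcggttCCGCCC
The window held 40 CpG dinucleotides and 3 GC boxes and no match to the AP-1 or TEAD motif, which says only that these letters are not in this stretch.

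The Golgi and endoplasmic reticulum class held more rises than falls, and its most abundant gene per kb, RAB1B, was not called. RAB1B stood at 307, 315 and 293 CPM in shTRIP6 against 321, 300 and 305 CPM in shControl, with overlapping groups. RAB1A (0.08), RAB6A (0.06) and RAB43 (-0.10) were not called either, although RAB1A passed with upper-quartile scaling and, like RAB6A, without shControl replicate 1 (alternatives from 0.0199 to 0.279 for RAB1A and from 0.00481 to 0.955 for RAB6A). RAB34, which acts in Golgi positioning and in early steps of primary cilium formation, rose from 137, 175 and 178 to 242, 248 and 224 CPM (log2 fold change 0.54 ± 0.07, edgeR adjusted p = 3.97e-06). It was lowest in shControl replicate 1, and every shTRIP6 library lay above all 3 shControl libraries. RAB29, of the trans-Golgi and lysosomes and a partner of the kinase LRRK2, rose by 0.44, RAB18, of the endoplasmic reticulum and lipid droplets, by 0.24, and RAB2A, of the early secretory pathway, by 0.23 on the log2 scale. RAB2B, its paralog, fell by 0.43, so that RAB2A supplied 90.1% ± 0.708 of the pair per kb in shTRIP6 and 85.2% ± 2.01 in shControl. Exons of RAB2B overlap those of TOX4. RAB2A lies on chromosome 8, where the median log2 fold change of tested genes was 0.23. RAB2B lies on chromosome 14, where that median was -0.22. The part of these chromosome-wide shifts in the changed share of the pair was not tested.

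RAB30 (chromosome 11, 82973133 to 83071923, minus strand), which keeps the structure of the Golgi, stood at 8.41, 6.71 and 9.64 CPM in shTRIP6 and at 25.4, 22.8 and 22.9 CPM in shControl. The groups did not overlap (log2 fold change -1.52 ± 0.12, edgeR adjusted p = 2.37e-09). RAB36 (chromosome 22, 23145326 to 23164350, plus strand), a Golgi GTPase related to RAB34, rose with it, at 10.6, 10.1 and 9.32 CPM against 4.77, 5.65 and 5.53 CPM (log2 fold change 0.91 ± 0.14, edgeR adjusted p = 1.39e-05). RAB39A (chromosome 11, 107928503 to 107963482, plus strand), which acts in phagosomes and autophagy, rose to 5.55, 5.43 and 5.14 CPM from 2.99, 1.89 and 3.17 CPM (log2 fold change 1.00 ± 0.21, edgeR adjusted p = 0.000343). Its paralog RAB39B, linked to Parkinson's disease, stood at 1.13, 0.639 and 1.35 against 0.873, 0.546 and 0.00 CPM, with overlapping groups and no call. It passed with limma-voom and without shControl replicate 1 (alternatives from 0.0105 to 0.481). RAB6C and RAB6D are near-identical copies of RAB6A, so their few counts (at most 22 and 31 in a library) cannot be assigned with certainty. RAB6C, not called, passed with limma-voom and without shControl replicate 3 (alternatives from 0.00392 to 0.609).

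Among the members sorted as other, RAB42 (chromosome 1, 28592200 to 28595443, plus strand), a little-studied RAB, had the largest fitted fall of the family. It had 1, 5 and 5 counts in the shTRIP6 libraries (0.0314, 0.160 and 0.161 CPM) and 79, 56 and 92 counts in the shControl libraries (2.65, 1.80 and 2.97 CPM). That left 4.74% of the control mean (log2 fold change -4.36 ± 0.47, edgeR adjusted p = 2.16e-07), and without shTRIP6 replicate 1 the log2 fold change was -3.91. RAB32 and RAB38, which supply enzymes to lysosome-related organelles such as melanosomes, both rose. RAB32 was the most abundant of these members, at 51.8, 54.8 and 49.4 CPM in shTRIP6 against 37.1, 41.5 and 41.5 CPM in shControl (log2 fold change 0.38 ± 0.07, edgeR adjusted p = 0.000105), and RAB38 rose by 0.73 on the log2 scale. RAB24, of autophagy, and RAB28, of cilia, rose by 0.39 and 0.59. RAB23, which restrains Hedgehog signalling at the cilium, fell from 41.2, 39.8 and 36.3 to 22.7, 22.1 and 26.7 CPM (log2 fold change -0.72 ± 0.08). RAB12, of recycling endosomes and lysosomes, fell by 0.33 and RAB40C, part of a ubiquitin ligase, by 0.51, while its paralog RAB40B (0.29) was not called (edgeR adjusted p = 0.0516). RAB40B passed in 5 of 14 alternatives, namely limma-voom, no low-count filter, the replicate block (adjusted p = 0.0386), upper-quartile scaling and without shControl replicate 2, which spanned 0.00483 to 0.208 with the rest. Exons of RAB24 overlap those of MXD3, exons of RAB23 those of BAG2 and exons of RAB40C those of WFIKKN1. RAB40B made up 24.5% ± 3.68 of the RAB40 subfamily per kb in shControl and 36.0% ± 0.261 in shTRIP6.

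Untested for want of counts were RAB3C, RAB19 and RAB33A, with no count in any library, and RAB25, RAB41 and RAB44. For 17 of the 62 members some exon overlaps a different gene of the count table, among them RAB43 and RAB4B, which share exons with the read-through genes ISY1-RAB43, MIA-RAB4B and RAB4B-EGLN2. Of the 56 tested members 16 had such overlaps, and among those without them 13 rose and 13 fell. Over all genes tested, with or without overlaps, 29.0% rose and 31.2% fell.

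The genes next to the members with the largest changes were read as well. The nearest tested genes on either side of RAB3B, MIR761 and TXNDC12, were at log2 fold changes of 0.32 and 0.09, and neither was called. Beside RAB15, CHURC1-FNTB was at 0.11 and FNTB at 0.05, and neither was called. The next gene out, CHURC1, fell by 0.82. No nearest gene was called beside RAB30 (DDIAS at 0.00 and RAB30-AS1 at 0.43), RAB36 (GNAZ and BCR, both at -0.01), RAB39A (SLC35F2 at 0.07 and CUL5 at 0.06) or RAB42 (TAF12 at -0.01 and GMEB1 at 0.02). Beside RAB9B, TMSB15B-AS1 rose by 0.95 and MORF4L2-AS1 was at 0.25 with no call. Next to RAB27B, CCDC68 fell by 0.73 and C18orf54 rose by 0.63 on the log2 scale. Next to RAB31, VAPA fell by 0.58 and PPP4R1 was at 0.00. RAB27B, RAB31 and RAB12, the 3 tested members on chromosome 18, all fell. On that chromosome 44.2% of 208 tested genes fell and 21.2% rose, with a median log2 fold change of -0.17, against 31.2% and 29.0% of all genes tested. On chromosome 9, which carries RAB14, 53.9% of 614 tested genes fell and 14.0% rose, with a median of -0.35. DENND1A, DENND4C, RABGAP1, TBC1D13, GOLGA2 and RABL6, regulators or effectors named below as falling, also lie on chromosome 9. The part of such chromosome-wide shifts in the changes of single genes was not tested.

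Regulators and effectors of RABs were read from 8 fixed lists. Together they held 165 tested genes, of which 52 rose (31.5%) and 54 fell (32.7%), near the 29.0% and 31.2% of all genes tested. Of the exchange factors, which load RABs with GTP, 11 of 36 rose and 7 fell (median log2 fold change 0.12). DENND2A rose to 14.9 ± 0.251 from 4.85 ± 0.530 CPM, and DENND1A, an activator of RAB35, fell to 15.4 ± 1.36 from 37.3 ± 1.25 CPM. SH3BP5L, an exchange factor of RAB11, and DENND3, of RAB12, rose by 0.79 and 0.68 on the log2 scale, and DENND4C, of RAB10, and SBF2 fell by 0.57 and 0.55. Of the GTPase-activating proteins 10 of 33 rose and 12 fell (median -0.01). Exons of DENND2A overlap those of ADCK2, exons of DENND1A those of CRB2 and exons of TBC1D8 those of CNOT11. TBC1D8 fell to 1.75 ± 0.118 from 14.2 ± 2.00 CPM, RABGAP1 fell by 1.12 and TBC1D13, which acts on RAB35, by 0.83. TBC1D8B (0.58), TBC1D10A (0.56) and TBC1D14 (0.53) rose. The call of TBC1D8B was lost without shTRIP6 replicate 2 (edgeR adjusted p = 0.0550, the highest of alternatives that began at 0.00155). Of the GDI and prenylation genes 5 of 8 rose and 1 fell (median 0.30). The rises included those of GDI2, which extracts RABs from membranes, the escort protein gene CHM, the prenyltransferase subunit gene RABGGTB and the prenylated RAB acceptor gene RABAC1, between 0.39 and 0.56 on the log2 scale. CHML, the CHM paralog, fell by 0.17, with overlapping groups. That fall was not called with upper-quartile scaling or without shTRIP6 replicate 1 or 2.

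**Figure D5:**
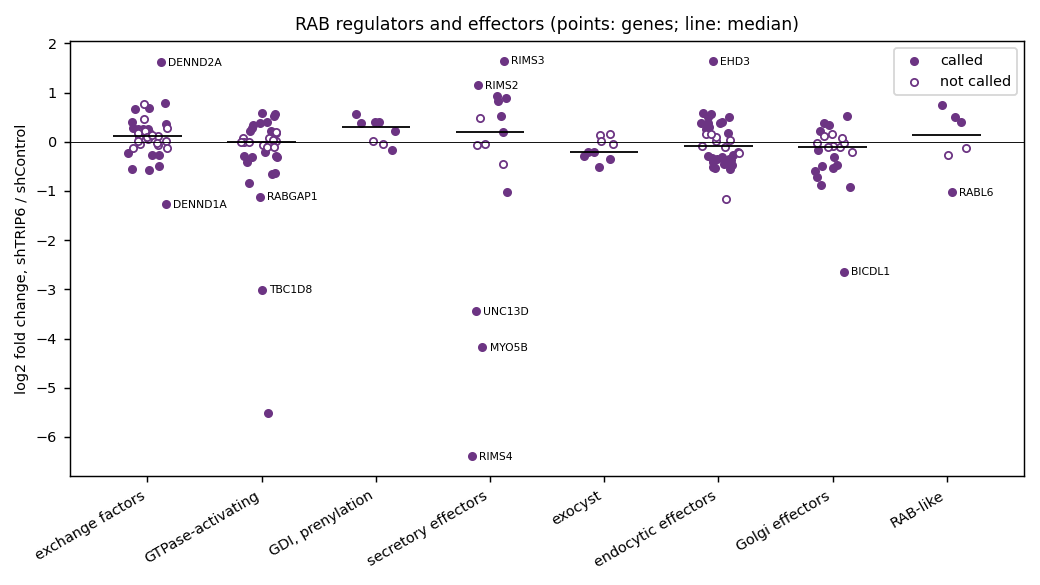
Log2 fold change of shTRIP6 over shControl (y axis) of the tested RAB regulators and effectors, one column per list, with a line at the median; filled points passed an adjusted p of 0.05. The list of secretory effectors spread widest among the named genes, from RIMS4 (-6.39), MYO5B (-4.18) and UNC13D (-3.44) to RIMS2 (1.15) and RIMS3 (1.65). A place in the list does not show that RIMS3 or RIMS4 binds a RAB. The unlabelled low point among the GTPase-activating proteins is TBC1D30, with a mean below 1 CPM.

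The secretory effectors changed in both directions, with 7 of 15 tested genes higher and 4 lower (median 0.20). Among the RIM genes of this list that are named here, RIMS2 encodes a protein that binds RAB3 at release sites. For RIMS3 and RIMS4 a place in the list does not show that the protein binds a RAB. RIMS3 rose to 11.01, 11.5 and 11.6 from 4.03, 3.56 and 3.27 CPM and RIMS2 to 28.2, 29.4 and 33.6 from 14.3, 12.1 and 14.6 CPM. RIMS4 went the other way, from 12.1, 10.9 and 12.7 CPM to 0.188, 0.160 and 0.0643 CPM (log2 fold change -6.39 ± 0.26, edgeR adjusted p = 1.33e-13). Exons of RIMS4 overlap those of KCNK15. Among partners of RAB27, MLPH, the melanophilin that links RAB27A to myosin Va, rose to 113, 103 and 111 from 56.6, 56.4 and 59.9 CPM. UNC13D, the priming factor Munc13-4 of lytic granules, fell from 21.6, 29.3 and 30.1 to 2.89, 2.40 and 2.15 CPM (log2 fold change -3.44 ± 0.15, edgeR adjusted p = 4.31e-13). The synaptotagmin-like genes SYTL4 and SYTL2, other RAB27 effectors chosen here with their values known, rose by 0.88 and fell by 1.03, respectively. MYO5B, the motor of RAB11 vesicles in epithelia, fell from 7.29, 6.61 and 8.79 to 0.471, 0.639 and 0.129 CPM, while MYO5A (-0.05) was not called. Exons of MYO5B overlap those of SNHG22 and exons of SYTL4 those of SRPX2.

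Of the 9 exocyst subunits, which tether vesicles carrying RAB8, RAB10 or RAB11, none rose in edgeR, and 5 fell by 0.21 to 0.51 on the log2 scale. At an unadjusted p under 0.05 the count of rises was 0 in edgeR and in DESeq2 and 1 in limma-voom, and with adjustment it was 0 in each, but 2 with upper-quartile scaling and 1 without shControl replicate 1 or 2. EXOC6B fell by 0.51, EXOC6 by 0.35 and EXOC2 by 0.29. The call of EXOC6 was lost with upper-quartile scaling and without shControl replicate 1 or shTRIP6 replicate 1 or 3 (edgeR adjusted p from 0.00893 to 0.155 over its alternatives). Of the endocytic effectors 12 of 35 rose and 14 fell (median -0.08). EHD3, a recycling endosome ATPase, rose to 9.16 ± 1.09 from 2.94 ± 0.926 CPM, RAB11FIP5 by 0.58 and PLIN3 by 0.56 on the log2 scale. VPS39, a subunit of the HOPS tether that binds RAB7, fell by 0.55, and RILPL1 and RILP, a RAB7 adaptor for dynein, by 0.53 and 0.51. Of the Golgi effectors 4 of 23 rose and 10 fell (median -0.11). BICDL1, a dynein adaptor of RAB6 vesicles, fell to 0.731 ± 0.192 from 4.59 ± 0.455 CPM, and the Golgi tethers GOLGA2 and GCC2 fell by 0.92 and 0.87. MICAL1 (0.53), GORASP1 (0.38) and BLZF1 (0.34) rose. Of the RAB-like genes 3 of 6 rose and 1 fell (median 0.14). RABL6 fell to 99.1 ± 3.62 from 202 ± 1.84 CPM, and RABL2B (0.74) and IFT22 (0.51), of cilia, rose. RABL2A also rose, by 0.40, but lost its call without any of the libraries except shControl replicate 1 (edgeR adjusted p 0.0577 to 0.128, and 0.00238 at the lowest of its alternatives).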

How the data were processed

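Raw read counts per gene symbol were deposited by the authors, 1 file per library and 27980 symbols in each, without normalization. TopHat2, edgeR, limma and hg38 are named, per the submitters' processing notes, with no version and no role for any of them. Counting tool, annotation and strand setting: not given in the sources used here. From these counts, edgeR 4.0.16 (R 4.3.3) was run with TMM factors, filterByExpr and a quasi-likelihood test on group alone, with Benjamini-Hochberg adjustment over all 15473 genes. The SE is the log2 fold change divided by the square root of F, and CPM used TMM-scaled library sizes. Exons, overlaps and lengths came from GENCODE release 29 (GRCh38), which held all 62 members, and promoter windows from RefSeq (GRCh38.p14).

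Values by library are given for called members at 1 CPM or more on average with a log2 fold change of at least 0.8 in size, for their paralogs, and for the most abundant member of each role. Up to 3 rises and 3 falls per regulator list were named at 1 CPM or more where the groups did not overlap. Named outside this rule were GDI2, CHML, SYTL2, SYTL4, MYO5A and TBC1D30. The members and lists were chosen with earlier results of these data known. No list was tested as a set, and some listed genes are not reported by name here.

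Other settings tried were scaling by RLE, by upper quartile or by library size alone, testing every gene with reads, requiring 1 CPM in 3 libraries, limma-voom (limma 3.58.1), DESeq2 1.42.0, a replicate block, and leaving out each library. Shares without length, and with a library left out, were added after seeing the data. The tests were checked on simulated data. A count of 0 allows up to 3 counts, and this floor covers counting error only, since reads are not independent molecules.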

Additional observations from a re-analysis of the deposited data

How the results depend on the processing

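Of the 32 called RAB members, 30 kept their call in each of the 14 alternative fits that tested them, and RAB10 and RAB21 lost theirs in some. Of the 24 not called, 9 passed in at least 1 alternative. No called member reversed. The median log2 fold change of the secretory class was 0.08 with upper-quartile scaling, and -0.02 to 0.05 with a library left out (-0.02 without shControl replicate 2). That of the Golgi and endoplasmic reticulum class was 0.11 with the filter of 1 CPM in 3 libraries, which tested 49 members. Without division by exon length the share of the secretory class was 1.09 points higher in shTRIP6, against -0.39 with it. On the same scale the endocytic share was -5.29 points and the RAB3B share of its subfamily 17.6 points, against 33.7 with it. Over all genes the log2 fold change shifted by a median of 0.048 with upper-quartile scaling. The cause of the shifts in the class medians was not tested. With a library left out, 14 to 17 members rose and 16 to 18 fell.

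Equal replicate numbers showed no sign of marking paired libraries. Deviations of same-numbered libraries correlated at -0.00223, 0.0100 and -0.0695 across genes, and no shTRIP6 library correlated best with its own number. The deviations were taken from group means of 3 libraries, so these values cannot exclude pairing. With the replicate block 15 members rose and 18 fell, and over all genes 4377 rose and 4702 fell, against 4487 and 4820 without it. Counts limit RAB26, RAB37 and RAB42. The log2 fold change of RAB26 ran from -3.31 without shTRIP6 replicate 3 to -2.58 without shTRIP6 replicate 1, that of RAB37 from 1.51 without shControl replicate 3 to 2.79 without shControl replicate 1, and that of RAB42 from -4.63 without shTRIP6 replicate 2 or 3 to -3.91 without shTRIP6 replicate 1.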
